A study of Mus musculus with 8 samples.

Results

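The genes for antigen presentation by major histocompatibility complex (MHC) class I and class II molecules were followed in sorted Paneth cells of Mll1+/- and Mll1-/- mice. The 10 genes were taken by symbol from the 53801 genes of the deposited count table: the class II genes Cd74, H2-Aa, H2-Ab1, H2-Eb1 and H2-DMa, their activator Ciita, and the class I genes B2m, H2-K1, H2-D1 and Tap1. All 10 were among the 13439 genes with enough counts to be tested. RNA was measured in 8 libraries, 1 per mouse. All mice carried the tamoxifen-inducible Lgr5-EGFP-IRES-CreERT2 allele, which expresses Cre in Lgr5+ stem cells and recombines crypts in a mosaic, and β-catGOF, a β-catenin locus that loses exon 3 on recombination and then gives a stabilised protein. The 4 controls were β-catGOF; Mll1+/- and the 4 knockouts β-catGOF; Mll1-/-, both by recombination of a floxed Mll1 allele. The study's methods paragraph on the sort leaves β-catGOF out of the genotypes, while its results give it for both groups and the sample labels name only Mll1. Males and females were used, and tamoxifen (per the labels 1 mg on each of 3 days) was given at 4 to 6 weeks of age. Viable EpCAM+ Cd24+ cells were sorted 10 d after induction, 300 per mouse, and a CD45 antibody was in the stain. The methods call the mice littermates, and the labels give no litter. In such bulk samples, fewer cells of a type and less RNA per cell cannot be told apart.

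Class I molecules present peptides from the cell's own proteins to CD8+ T cells. Their heavy chains (H2-K1, H2-D1) pair with β2-microglobulin (B2m), and the peptides enter the endoplasmic reticulum through a transporter of which Tap1 is a subunit. Class II molecules present peptides from endosomes to CD4+ T cells and are pairs of an α chain (H2-Aa) and a β chain (H2-Ab1), or of the α chain of I-E and its β chain H2-Eb1. Cd74, the invariant chain, guides them to endosomes, and H2-DMa is a chain of H2-DM, which helps to exchange the Cd74 remnant for a peptide. Ciita switches on class II genes. Nlrc5 is its counterpart for class I genes, and interferon-γ can raise both sets. Intestinal epithelial cells are known to carry class I molecules and, when stimulated, class II molecules as well.

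Levels are given as normalized CPM, CPM being counts scaled to library sizes adjusted by TMM (trimmed mean of M-values). A count of 3 was worth 0.172 to 0.352 normalized CPM, and totals on genes were 13037832 to 14380240. Paneth markers dominated the libraries: Defa24, a defensin, had 182660 to 510970 normalized CPM, and of the genes for the sorting markers, Epcam lay between 210 and 300 and Cd24a between 804 and 1365. Knockout 3 stood apart, with a TMM factor of 0.632 (0.822 to 1.34 in the others) and a count on 19662 genes (22623 to 26074 in the others). Its share of mitochondrial counts was the lowest, 2.04% against 3.26% to 8.78% in the others, and that of control 1, the library with the highest summed class II level, was the highest. The part of this in the members' levels was not tested. The libraries carry 2 runs of label numbers, called library set 1 (controls 1 and 2, knockouts 1 and 2) and set 2 (controls 3 and 4, knockouts 3 and 4), and what the numbers stand for is not given in the labels. The titles of control 4 and knockout 4 hold 1 animal number between them, which was not used. Kmt2a, which encodes Mll1, had 22.4 to 45.1 normalized CPM in the controls and 25.7 to 38.5 in the knockouts. Its log2 fold change was -0.06 (SE 0.24). In set 1 it was -0.54 (SE 0.24) and in set 2 it was 0.52 (SE 0.24), where both knockouts lay above both controls (interaction unadjusted p = 0.011, edgeR adjusted p = 0.867). That count sums all exons and does not show whether the floxed part was deleted. Below, "called" means that a gene passed both limits, an adjusted p no higher than 0.05 (edgeR's quasi-likelihood test, Benjamini-Hochberg) and a log2 difference no smaller than 0.5 in either direction.

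The promoters of a class II α chain gene, a class II β chain gene and a class I heavy chain gene are shown because class II and class I genes are switched on through short shared boxes before their starts. Each window runs from 250 bases before the start of a transcript to 50 after it, from RefSeq on GRCm38.p6, and is written 5′ to 3′ on the gene's own strand. Capitals mark the letters of the class II Y box (CTGATTGG or its reverse complement CCAATCAG), a κB motif (GGGATTCCC) and an interferon response motif (GAANNGAAA, here as its reverse complement TTTCACTTC), motifs chosen after the windows had been read. H2-Aa lies on the minus strand with its window at chr17:34287774-34288073, H2-Eb1 on the plus strand at chr17:34305617-34305916, and H2-K1 on the minus strand at chr17:34000298-34000597.
H2-Aa: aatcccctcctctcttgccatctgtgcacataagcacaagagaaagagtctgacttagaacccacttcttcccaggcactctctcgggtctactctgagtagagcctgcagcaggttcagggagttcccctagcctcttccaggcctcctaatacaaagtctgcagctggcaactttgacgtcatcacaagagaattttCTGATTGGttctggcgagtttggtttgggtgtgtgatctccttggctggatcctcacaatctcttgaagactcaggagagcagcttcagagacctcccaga
H2-Eb1: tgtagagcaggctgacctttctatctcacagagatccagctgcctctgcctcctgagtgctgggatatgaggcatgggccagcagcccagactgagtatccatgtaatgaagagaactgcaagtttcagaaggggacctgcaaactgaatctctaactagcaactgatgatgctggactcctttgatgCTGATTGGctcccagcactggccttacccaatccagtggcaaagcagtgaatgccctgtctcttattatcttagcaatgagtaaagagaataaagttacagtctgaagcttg
H2-K1: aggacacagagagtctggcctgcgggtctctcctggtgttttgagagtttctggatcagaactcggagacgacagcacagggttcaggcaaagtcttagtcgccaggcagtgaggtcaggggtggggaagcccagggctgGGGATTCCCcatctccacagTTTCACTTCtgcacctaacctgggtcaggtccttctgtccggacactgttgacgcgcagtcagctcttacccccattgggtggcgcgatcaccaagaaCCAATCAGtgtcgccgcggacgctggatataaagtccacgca

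The Y box began 51 bases before the start in H2-Aa and 62 bases before it in H2-Eb1. In the H2-K1 window the reverse complement of its letters began at base 9 after the start, or 6 bases before a second RefSeq start of that gene. This match is of letters only and is not shown to be the Y box of H2-K1. The κB motif of H2-K1 began 110 bases before the start and the interferon response motif 90 bases before it. Of the 10 genes, 7 had a window, and H2-Ab1, Ciita and Cd74 had none. The letters of the Y box were in the windows of 5 of these 7 (H2-Aa, H2-Eb1, H2-K1, H2-D1 and Tap1) and in 4.1% of all 32851 windows, on either strand. Those in H2-D1 and Tap1 are likewise not shown to be the Y boxes of these genes. The windows of H2-DMa, without a match, lie well before the span given for it here and do not reach it, so that they do not show the start of the counted gene. The κB motif was in those of H2-K1 and H2-D1 and in 0.353% of all windows. The same pair held the interferon response motif, found in 7.52% of all windows. The marked motifs do not overlap each other. These are matches of letters, not sites shown to be bound.

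B2m and the class I heavy chain genes were the most abundant of the 10, and Tap1 was among the least. Per kb of exon, B2m was highest at 404 normalized CPM (mean of 8 libraries, range 335 to 588), followed by H2-K1 at 87.5 (73.7 to 107) and H2-D1 at 41.2 (33.0 to 52.9). These 3 kept their order in all 8 libraries, and their ranges did not overlap. The class II chains and Cd74 came next and could not be ranked among themselves. H2-Eb1 had 7.62 normalized CPM per kb (0.397 to 16.5), H2-Ab1 7.23 (2.36 to 12.6), H2-Aa 5.70 (1.82 to 11.2) and Cd74 5.48 (1.21 to 11.4), with overlapping ranges between neighbours. H2-DMa, at 2.61 per kb, overlapped with Cd74 and, in range, with Tap1 at 0.665, though it lay above Tap1 in each of the 8 libraries. Ciita was lowest at 0.134 per kb (0.0376 to 0.257), below Tap1 in every library.

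Most of these genes lie in the MHC region of chromosome 17 (GRCm38). The class II genes span 34263209 to 34269418 (H2-Ab1), 34282744 to 34287827 (H2-Aa), 34305877 to 34316199 (H2-Eb1) and 34135182 to 34139101 (H2-DMa). The class I genes there span 33996017 to 34000333 (H2-K1), 35262730 to 35267499 (H2-D1) and 34187553 to 34197225 (Tap1). B2m lies on chromosome 2 from 122147686 to 122153083, Ciita on chromosome 16 from 10480059 to 10528418, and Cd74 on chromosome 18. Counting covered annotated exons, and the strand setting is not given in the sources used here. Of its exon bases, Tap1 shares 3.9% with Psmb9 on the other strand, Ciita shares 3.5% with Dexi on the other strand, and Cd74 shares 0.9% with Mir5107 on its own strand. The other members share none. H2-K1 and H2-D1 have near-identical relatives, and since only uniquely mapped reads were counted, their levels are uncertain to the extent that reads mapped to more than 1 of them.

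**Figure D1:**
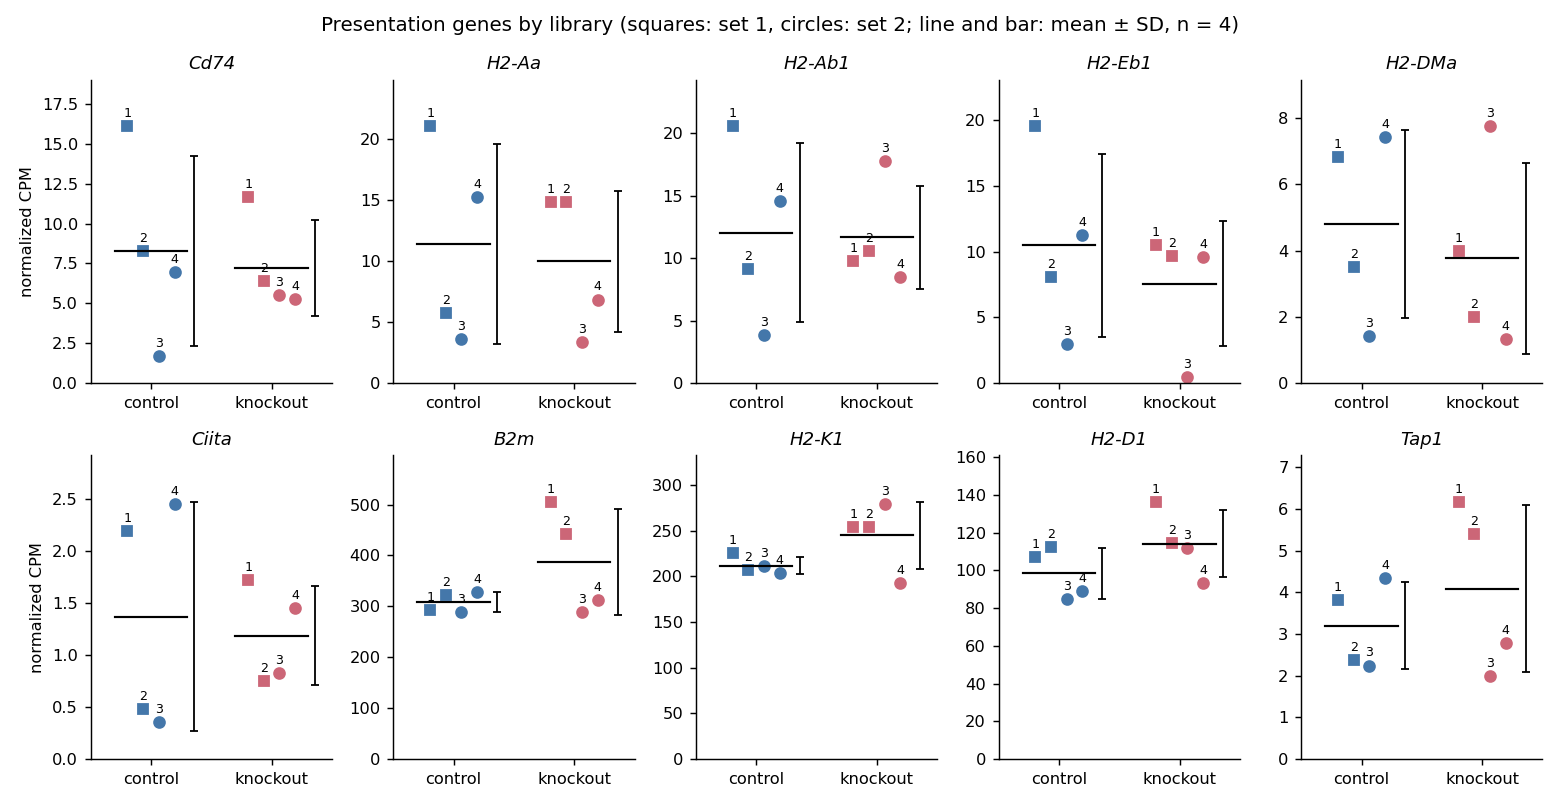
Normalized CPM of the 10 presentation genes in each library, with numbers giving the library, squares for library set 1 and circles for set 2. Lines and bars are the mean and SD of 4 libraries. The controls spread from 1.71 to 16.1 for Cd74 but only from 290 to 328 for B2m, and every gene has overlapping genotypes.

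None of the 10 genes was called between the genotypes, against 0.186% of all genes tested (0.156% higher and 0.0298% lower in the knockouts), nor was any called by DESeq2 (1.03% of all genes) or without knockout 3 (1.08%). No member reached an unadjusted p under 0.05 (6.88% of all genes did) in edgeR or in DESeq2, 4 were higher and 6 lower in the knockouts (50.9% of all genes had a fold change above 0), and in none were the genotypes without overlap (4.52% of all genes). The 4 class I genes had positive and the 6 class II genes negative log2 fold changes, but the sign turned for Cd74, H2-Aa, H2-Ab1, H2-Eb1 and Ciita without control 1 and with limma-voom. All adjusted p lay between 0.878 and 0.995.

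The class II genes varied widely from mouse to mouse within each genotype. Cd74 had 16.1, 8.25, 1.71 and 6.95 normalized CPM in controls 1 to 4 and 11.6, 6.37, 5.52 and 5.28 in knockouts 1 to 4. Control 1 was highest and control 3 lowest, so that the knockouts lay within the span of the controls, and the log2 fold change was -0.20 (SE 0.51, edgeR adjusted p = 0.987). H2-Aa, the α chain of I-A, had 21.1, 5.71, 3.59 and 15.2 in the controls and 14.9, 14.8, 3.41 and 6.85 in the knockouts. The lowest library was knockout 3, close to control 3, and the log2 fold change was -0.18 (SE 0.56, edgeR adjusted p = 0.990). H2-Ab1, its β chain partner, had 20.6, 9.12, 3.86 and 14.6 in the controls and 9.80, 10.6, 17.7 and 8.49 in the knockouts. Its log2 fold change was -0.06 (SE 0.42). Here knockout 3 was the highest knockout, unlike in H2-Aa.

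H2-Eb1, the β chain of I-E, had 19.6, 8.09, 2.96 and 11.3 normalized CPM in the controls and 10.5, 9.70, 0.470 and 9.58 in the knockouts. Knockout 3, with 4 counts, lay far below all other libraries. The log2 fold change of -0.45 (SE 0.66, edgeR adjusted p = 0.970) was -0.09 without it. H2-DMa had 6.83, 3.49, 1.44 and 7.42 in the controls and 3.98, 2.01, 7.75 and 1.33 in the knockouts. Knockout 3 was its highest library and knockout 4 its lowest. The log2 fold change of -0.39 (SE 0.59) was -0.98 (SE 0.53, unadjusted p = 0.0857, edgeR) without knockout 3. Ciita had 2.19, 0.476, 0.359 and 2.45 in the controls and 1.72, 0.746, 0.822 and 1.46 in the knockouts, from 4 to 35 counts per library. Controls 1 and 4 were its highest libraries, as they were the highest controls for each class II gene except Cd74. In Cd74, control 2 lay above control 4.

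Summed over Cd74, H2-Aa, H2-Ab1, H2-Eb1 and H2-DMa, the class II level was 84.1, 34.7, 13.6 and 55.5 normalized CPM in controls 1 to 4 and 50.8, 43.5, 34.9 and 31.5 in knockouts 1 to 4. The controls thus spanned a 6.21-fold range that took in all knockouts. Controls averaged 47.0 ± 30.1 and knockouts 40.2 ± 8.68 (SD, n = 4 each).

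In knockout 3 some of the class II genes, H2-Eb1 above all, were out of proportion to H2-Ab1. H2-Eb1 had 0.767 to 1.13 times the counts of H2-Ab1 in the other 7 libraries but 0.0265 times in knockout 3 (4 counts against 151, exact 95% interval 0.00713 to 0.0692). H2-Aa had 0.626 to 1.52 times the counts of H2-Ab1 in the others and 0.192 times in knockout 3 (29 against 151, interval 0.124 to 0.287). Cd74 had 0.311 times the counts of H2-Ab1 in knockout 3, below the 0.442 to 1.19 of the others. Other class II ratios stayed in range there: H2-DMa to H2-Ab1 was 0.437 (others 0.157 to 0.508), and H2-DMb1 to H2-DMa 0.758 (others 0.25 to 1.23). The heavy chain ratio of H2-D1 to H2-K1 was 0.402 in knockout 3 and 0.403 to 0.545 in the others. The ratio of B2m to H2-K1 was 1.03 in knockout 3 (interval 0.976 to 1.09), below the 1.30 to 1.99 of the others, so that a class I ratio was lowest there too. A ratio within a library does not depend on the scaling, and these intervals cover counting error only, since PCR copies were counted separately. Some genes were at 0 counts in knockout 3 while present elsewhere. Ctss, a protease of the class II pathway, had 19 to 139 counts in the other libraries. Rfx5, a factor that binds class II promoters, had 8 to 36 there, and the class I-like gene H2-T3 had 7 to 64. Ctss and H2-T3 were picked after their values were seen. Zeros were most common in knockout 3 in other lists as well. That library had 0 counts for 14 of 40 interferon response genes (1 to 10 in the others) and for 31 of 37 leukocyte markers (15 to 29). Reads were aligned to the reference strain, class II and class I genes differ between mouse strains, and the mice's MHC type is not given in the sources used here. Its part in these ratios was not tested. H2-Ea-ps, annotated as a pseudogene of the I-E α chain, had 0 counts in all 8 libraries.

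**Figure D2:**
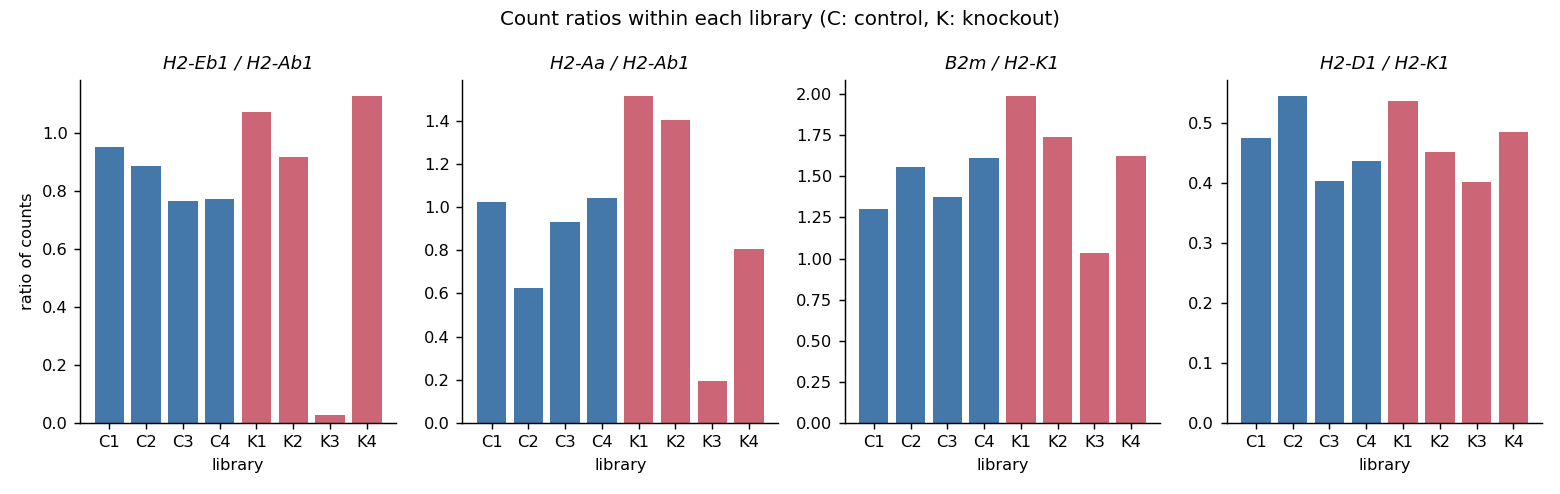
Ratios of counts between pairs of presentation genes in each library, with controls (C1 to C4) in blue and knockouts (K1 to K4) in red. For H2-Eb1 to H2-Ab1, knockout 3 is at 0.0265 and the others between 0.767 and 1.13, the ratio of B2m to H2-K1 is lowest in knockout 3 at 1.03, and that of H2-D1 to H2-K1 lies between 0.402 and 0.545 in all libraries.

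B2m, H2-K1 and H2-D1 varied less, by 1.76-fold or less over the 8 libraries, and the highest value of each class I gene was in a knockout. B2m had 293, 322, 290 and 328 normalized CPM in controls 1 to 4 and 506, 442, 288 and 312 in knockouts 1 to 4. Knockouts 1 and 2 lay above all controls and knockouts 3 and 4 within or just below their range. The controls averaged 308 ± 19.7 and the knockouts 387 ± 104 (SD, n = 4 each). The log2 fold change was 0.33 (SE 0.21, edgeR adjusted p = 0.878). Without knockout 3 it was 0.44 (SE 0.18, unadjusted p = 0.0282, edgeR adjusted p = 0.368), the only member with an unadjusted p under 0.05 there, where 11.3% of all genes had one. Without knockout 1 it was 0.18 (SE 0.22, unadjusted p = 0.436, edgeR). H2-K1 had 225, 207, 211 and 204 in the controls and 254, 253, 279 and 192 in the knockouts. Knockouts 1, 2 and 3 lay above all controls and knockout 4 below them, with a log2 fold change of 0.21 (SE 0.17, edgeR adjusted p = 0.915). H2-D1 had 107, 113, 85.0 and 89.0 in the controls and 137, 115, 112 and 93.1 in the knockouts, with the same log2 fold change of 0.21 (SE 0.18). Only knockouts 1 and 2 lay above its highest control. Tap1 had 3.82, 2.38, 2.24 and 4.34 in the controls and 6.18, 5.40, 2.00 and 2.79 in the knockouts. Its log2 fold change was 0.36 (SE 0.41), and 0.57 (SE 0.36) without knockout 3 but 0.11 (SE 0.45) without knockout 1. Its 2 highest libraries were knockouts 1 and 2 and its lowest was knockout 3.

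The exact permutation test of the genotypes over the 4 and 4 libraries, two-sided, gave p = 0.143 for H2-K1, 0.171 for H2-D1 and 0.343 for B2m, and 0.543 or more for the other members. The smallest p it allows is 0.0286.

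**Figure D3:**
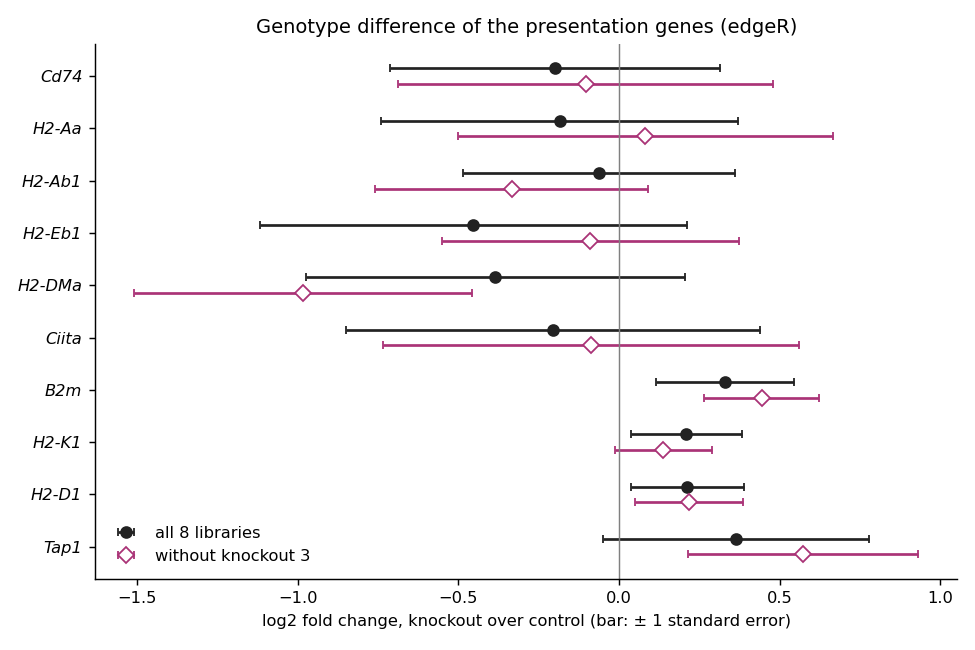
Log2 fold changes of knockout over control with bars of 1 standard error, for all 8 libraries (filled circles) and without knockout 3 (open diamonds). H2-DMa moves from -0.39 to -0.98 and H2-Eb1 from -0.45 to -0.09 when knockout 3 is left out, while B2m stays positive at 0.33 and 0.44.

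The genotype difference was also estimated within each library set. For B2m the log2 fold change was 0.62 (SE 0.23) in set 1 and -0.04 (SE 0.23) in set 2, and for Tap1 it was 0.89 (SE 0.49) and -0.45 (SE 0.50). The interaction of genotype and set had an unadjusted p of 0.0724 for B2m and 0.0856 for Tap1, and an adjusted p of 0.867 for both (edgeR). No member had an unadjusted p under 0.05 for it, nor did any of the 13439 genes pass both limits (0% called, 5.4% with an unadjusted p under 0.05). H2-K1 had 0.23 in set 1 and 0.18 in set 2, and H2-D1 0.19 and 0.24, so their difference was of like size in both. Among the class II genes, H2-Eb1 had -0.46 and -0.44, H2-DMa -0.79 and -0.01, and Ciita -0.13 and -0.28. Cd74 (-0.44 and 0.31), H2-Aa (0.14 and -0.85) and H2-Ab1 (-0.55 and 0.49) had opposite signs in the sets, with standard errors from 0.59 to 0.72.

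Set against set, with genotype in the model, 9 of the 10 members were lower in set 2, and none was called (0.0967% of all genes were). Among the 9, Ciita (-0.01), H2-K1 (-0.08) and H2-Ab1 (-0.17) were lower by less than their standard errors. The median log2 difference of the members was -0.32, and over all genes tested it was 0.00013. Of the cell markers, the 14 Paneth markers had a median log2 difference of 0.92, with 7 higher in set 2 at an unadjusted p under 0.05 and none called, and Ptprc was called lower, as described at the end. At the same limit, 4 of 7 enterocyte markers (median 0.69) and 3 of 7 goblet markers (median 0.76) were higher in set 2. Lower were 2 of 7 stem markers (median -0.23) and 3 of 8 tuft and enteroendocrine markers (median 0.40). Their part in the members' values was not tested. With no filter on low counts Cd74 was called, where 0.877% of all genes were. Cd74 had a log2 difference of set 2 to set 1 of -1.11 (SE 0.43, unadjusted p = 0.0247, edgeR adjusted p = 0.418) and H2-D1 one of -0.31 (SE 0.14, unadjusted p = 0.0482, edgeR adjusted p = 0.489). H2-DMa was the member with a positive value, 0.16. At an unadjusted p under 0.05, 4.85% of all genes were lower and 5.29% higher in set 2.

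The other genes of class II loading and regulation, 13 of 19 of which were tested, held no called gene, and 6 were higher and 7 lower in the knockouts, and the list had a median log2 fold change of -0.02 (0.01 over all genes). Ifi30, a reductase that opens disulfide bonds of antigens, had the lowest p of the list. It had 15.9, 19.4, 14.7 and 17.2 normalized CPM in the controls and 9.39, 10.5, 14.4 and 12.8 in the knockouts. Every knockout lay below every control, the closest being 14.4 against 14.7. Of the 13, it was the only 1 without overlap, as were 4.52% of all genes. The log2 fold change was -0.52 (SE 0.20, unadjusted p = 0.0259, edgeR adjusted p = 0.629), in an mRNA that shares 8.7% of its exon bases with a gene on the other strand. The protease Ctsl followed with 0.42 (SE 0.33), and shares 26.8% of its exon bases with another gene. Rfx5, with as large a shared part, had -0.85 (SE 0.77), and H2-DMb1, the β chain of H2-DM, 0.57 (SE 0.63). The value of H2-DMb1 was -0.09 without knockout 3, in which its level of 5.87 was the highest of all libraries, as for H2-DMa. H2-Oa and H2-Ob, chains of an inhibitor of H2-DM, had 0 counts in all 8 libraries.

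Of the class I loading and processing genes, 15 of 16 were tested, none was called, and 11 were higher and 4 lower in the knockouts, and the list had a median log2 fold change of 0.24 (0.12 without knockout 3, 0.08 without knockout 1). Nlrc5, the activator of class I genes, had 0.878, 1.27, 0.179 and 1.10 normalized CPM in the controls and 3.92, 2.81, 2.35 and 0.425 in the knockouts. Knockouts 1, 2 and 3 lay above all controls, with a log2 fold change of 1.45 (SE 0.68, unadjusted p = 0.0546, edgeR adjusted p = 0.737). Tapbpl, a peptide editor related to tapasin, had -0.70 (SE 0.42), Pdia3, a chaperone of the loading complex, 0.42 (SE 0.29), and Psmb8, a subunit of the immunoproteasome, 0.33 (SE 0.26). No gene of the list had an unadjusted p under 0.05. Psmb8 shares 6.8% of its exon bases with a gene on the other strand. The value of Pdia3 was 0.02 without knockout 3, in which it had 250 normalized CPM against 87.7 to 130 elsewhere.

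Non-classical class I genes are relatives of H2-K1 and H2-D1 and were mostly at low levels. The list also holds H2-Ke6, an MHC gene of another family that was not tested. Of the 17 with a row, 12 were tested, 10 higher and 2 lower, and their median log2 fold change was 0.63 (0.43 without knockout 3). None was called, and 2 had an unadjusted p under 0.05 with higher levels in knockouts, where 4.35% of all genes did. Of these, H2-Q6 passed the filter on low counts through the knockouts alone. H2-Q6 had 10, 9, 1 and 10 counts in the controls and 51, 59, 20 and 10 in the knockouts. Its log2 fold change was 2.05 (SE 0.66). Because of the way it passed the filter, its p lends no support to a difference and is not printed. H2-Q7 had 19, 20, 7 and 25 counts in the controls and 101, 126, 9 and 27 in the knockouts. Its log2 fold change was 1.57 (SE 0.61, unadjusted p = 0.0251, edgeR adjusted p = 0.623). In both, knockouts 1 and 2 were the highest libraries. H2-Q10 had 1.19 (SE 0.62) and H2-T10 1.13 (SE 0.59), at no more than 32 counts in a library. These genes resemble each other closely, so that uniquely mapped reads may be split between them in ways that cannot be told apart, and H2-T10 shares 27.1% of its exon bases with a gene on the other strand.

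**Figure D4:**
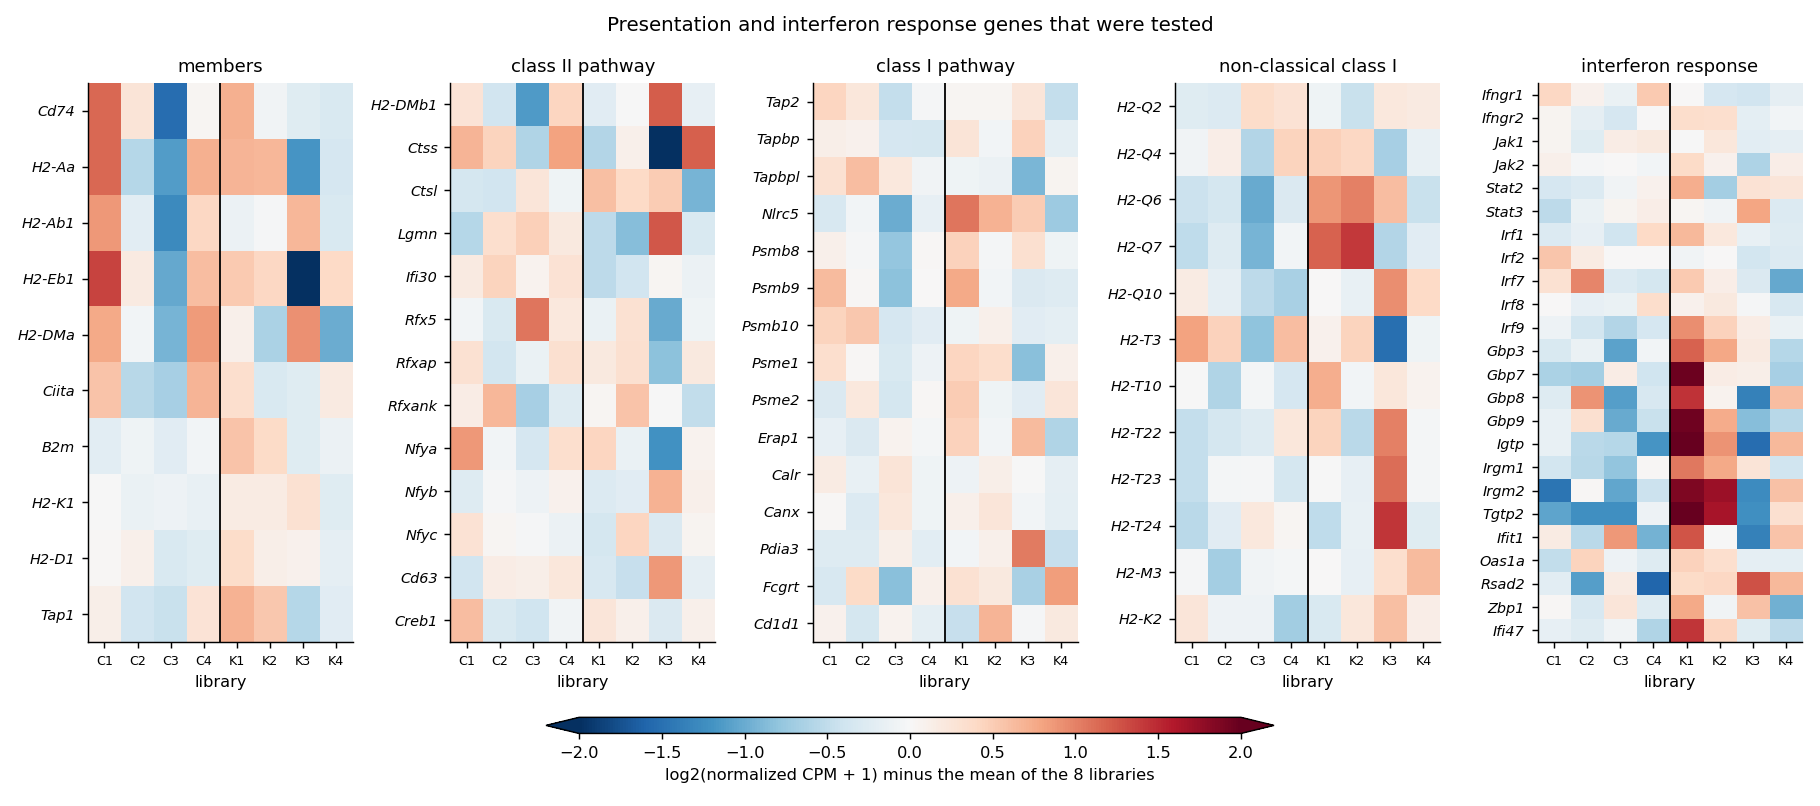
Log2(normalized CPM + 1) minus the mean of the 8 libraries, for tested genes of 5 lists, with controls (C1 to C4) to the left of the line and knockouts (K1 to K4) to the right. B2m, Tap1, Irgm1, Irgm2 and Tgtp2 are highest in K1 and K2, while the class II genes H2-Aa and H2-Eb1 are lowest in C3 and K3.

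Interferon response genes were high in knockout 1 above all. Summed over the 40 genes of the list, the level was 234, 230, 212 and 247 normalized CPM in controls 1 to 4 and 582, 308, 231 and 216 in knockouts 1 to 4. Of the 39 with a count in any library, 29 had their highest level in knockout 1, and the 39 include genes too low to be tested. The same held for 3 of the 10 members, 2 of 16 class II pathway genes, 6 of 16 class I pathway genes and 2 of 17 non-classical genes. The share of all genes highest in knockout 1 was not counted. Of the 25 tested, 20 were higher and 5 lower in the knockouts, and the list had a median log2 fold change of 0.47 (over the same 25 genes, 0.82 without knockout 3 and 0.17 without knockout 1). None was called, and 8 had an unadjusted p under 0.05 with higher levels, as 4.35% of all genes did (Irf9, Tgtp2, Irgm2, Irgm1, Igtp, Gbp7, Gbp3 and Rsad2), while 1, the interferon-γ receptor chain Ifngr1, had one with lower levels, as 2.53% of all genes did. Without knockout 1 there were 5 such higher genes, where 4.13% of all genes were. Without knockout 3 there were 9 of the same 25, where 6.48% of all genes were. In that fit 2 of the 25 were called, Igtp and Irgm2, where 1.08% of all genes were. A further 6 genes of the list passed the filter only in that fit, and 1 of them, Tgtp1, was called. Its counts were 2, 1, 0 and 2 in the controls and 172, 81, 0 and 13 in the knockouts, so that it passed the filter through the knockouts alone. In a fit with no filter on low counts 4 were called, Gbp7, Irgm1, Tgtp1 and Rsad2, where 0.783% of all genes were. DESeq2 called no gene of this list or of the 3 lists of class II, class I and non-classical genes. The leukocyte markers other than Ptprc, described at the end, summed to 4.57 normalized CPM in knockout 1, the highest library, and to 2.30 in knockout 2, and their part in the interferon response levels was not tested.

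Irf9, a subunit of the factor that carries type I interferon signals, had 11.7, 9.52, 8.08 and 9.71 normalized CPM in the controls and 24.8, 17.7, 13.98 and 11.4 in the knockouts. Knockout 4 was the only knockout below the highest control, and the log2 fold change was 0.80 (SE 0.26, unadjusted p = 0.00934, edgeR adjusted p = 0.468). Irgm1, an immunity-related GTPase, had 10.8, 9.36, 7.81 and 14.5 in the controls and 30.5, 24.7, 17.1 and 10.6 in the knockouts. Its log2 fold change was 0.97 (SE 0.32, edgeR adjusted p = 0.480). Its relative Irgm2 had 0.689, 3.73, 1.26 and 2.45 in the controls and 15.9, 14.1, 0.940 and 5.94 in the knockouts. Knockouts 1, 2 and 4 were above all controls and knockout 3 among the lowest. The log2 fold change of Irgm2 was 2.20 (SE 0.71, edgeR adjusted p = 0.474), and 2.57 (edgeR adjusted p = 0.0301) without knockout 3 but 1.82 (edgeR adjusted p = 0.666) without knockout 1, and 4.4% of its exon bases overlap Igtp. Tgtp2, a further GTPase of this family, had 2, 0, 0 and 15 counts in the controls and 271, 111, 0 and 32 in the knockouts (log2 fold change 4.20, SE 1.33, edgeR adjusted p = 0.468, and 3.09 without knockout 1).

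Knockout 1 was also the highest library for 4 genes that did not pass the filter on low counts in all 8 libraries together and were picked after their values were seen. The chemokine gene Cxcl9 had 1139 counts there and 0 to 49 in the other libraries, and Ido1, which encodes a tryptophan-degrading enzyme, had 275 there, 28 in control 4 and 0 elsewhere. The guanylate-binding protein genes Gbp2 and Gbp4 had 411 and 417 counts in knockout 1, 37 and 44 in knockout 2 and at most 13 elsewhere. Ifng itself, which encodes interferon-γ, had 0 counts in all 8 libraries, a number that limits only what these sorted cells carried.

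Knockouts 1 and 2, the knockouts of set 1, were both above the other 6 libraries in 3 of the 10 members (B2m, H2-D1 and Tap1), in 2 of 15 class I pathway genes (Nlrc5 and Psme1), in 2 of 12 non-classical genes (H2-Q6 and H2-Q7), in 0 of 13 class II pathway genes and in 10 of 25 interferon response genes. Over all 13439 genes this held for 5.57%. The pattern was noticed in the data before it was counted, and H2-Q6 passed the filter on low counts through the knockouts alone. No class II member showed it.

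**Figure D5:**
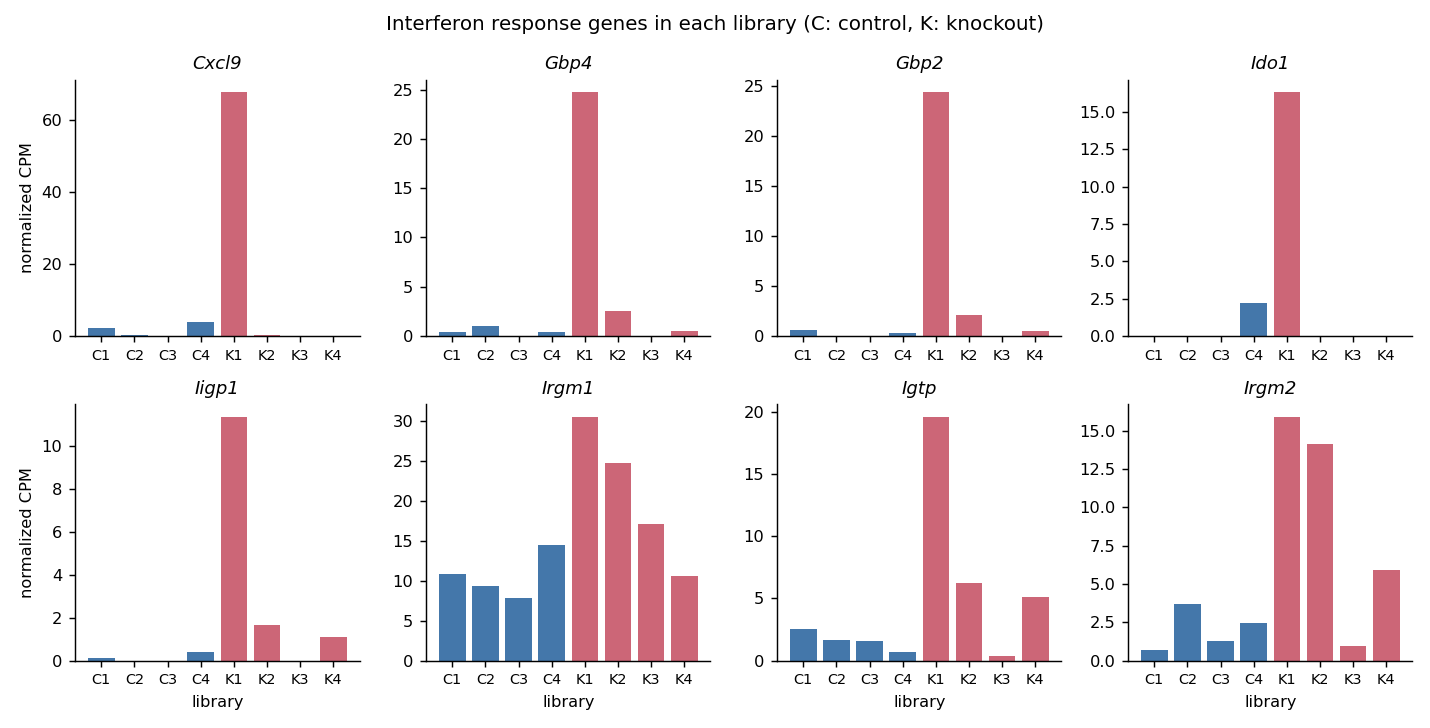
Normalized CPM of 8 interferon response genes, picked after their values were seen, in controls (C1 to C4, blue) and knockouts (K1 to K4, red). Cxcl9 reaches 67.7 in knockout 1 and at most 3.87 elsewhere, while Irgm2 is at 15.9 and 14.1 in knockouts 1 and 2.

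By pattern over the 8 libraries, among 4324 genes with a mean of at least 10 normalized CPM, the genes most like Cd74 were Cux1 (Pearson r = 0.957 on the log2 scale), Reep3 (0.917), Gm10722 (0.905), Etv6 (0.895) and Gm26870 (0.893). Among the 5 genes most like B2m were Cnot6 (r = 0.925), Ash2l (0.915), Qars (0.907) and Znrf3 (0.898). These values describe 8 libraries of unlike composition, and were not tested. With Spearman's rho in place of r, 1 of the 5 genes nearest Cd74 (Cux1) and 0 of those nearest B2m stayed among the first 5.

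Professional antigen-presenting cells carry class II genes, so markers of leukocytes were counted in the same libraries. Of 37 leukocyte markers, 3 had 0 counts everywhere, 24 had at most 3 counts in every library, and only Ptprc, which encodes CD45, was tested. Without Ptprc the other 36 summed to 3.32 to 4.31 normalized CPM in the controls and 1.21 to 4.57 in the knockouts, with Cd79b, a B cell gene (0 to 1.43), and Itgae, an integrin of intraepithelial lymphocytes (0 to 0.631), the highest by mean. Ptprc had 12.6, 8.41, 3.86 and 2.92 normalized CPM in controls 1 to 4 and 10.99, 9.02, 1.29 and 1.94 in knockouts 1 to 4. All libraries of set 1 lay above all of set 2, a log2 difference of -2.09 (SE 0.32, edgeR adjusted p = 0.0457) that passed both limits. The tuft cell genes Dclk1 and Trpm5, picked after their values were seen, had 41.9 to 137 and 25.8 to 82.8 normalized CPM in the controls, 14.01 to 90.5 and 8.34 to 52.3 in the knockouts, and were also lower in set 2 (log2 differences of -1.48 and -1.50, edgeR adjusted p = 0.107 and 0.0663). They are part of a list of 8 tuft and enteroendocrine markers, whose median difference of set 2 to set 1 was positive, 0.40. Of the 8, 3 were lower in set 2 at an unadjusted p under 0.05 (edgeR). Between the genotypes all 8 were lower in the knockouts, with a median log2 fold change of -1.28 (0.01 over all genes). DESeq2 called 2 of them, where 1.03% of all genes were, and edgeR called 0. Control 1 was highest of all in Cd74 and in Ptprc, but control 4 had 6.95 normalized CPM of Cd74 with the third lowest Ptprc. Markers of other cells differed between the libraries too. The 7 stem markers summed to 1529, 1120, 708 and 1421 normalized CPM in controls 1 to 4 and 639, 748, 273 and 960 in knockouts 1 to 4. The 8 tuft and enteroendocrine markers summed to 402 to 777 in the controls and 136 to 307 in the knockouts, without overlap. The part of any of these cells in the class II levels was not tested. Of 10 endothelial and stromal markers, Pecam1 was highest at 3.24 to 6.34 normalized CPM, and the other 9, with Lum and Col1a1 highest among them, summed to 0.789 to 1.82.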

How the data were processed

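Poly(A) RNA of sorted Paneth cells was amplified by Smart-seq2 and sequenced. The authors aligned the reads to mm10 with GSNAP and made gene counts from the reads that mapped uniquely (featureCounts 1.6.3, Ensembl release 92), after base calling with bcl2fastq 2.19.1 (submitters' processing notes). The deposited values are raw counts, not normalized, and hold no molecular identifiers. Samples were grouped by the Mll1 genotype in their labels. Replicate numbers are in accession order and pair nothing. The 92 spike-in rows (at most 11 counts per library) were left out. Ensembl identifiers gave a symbol for 53620 of the 53801 genes.

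Counts were analysed in R 4.3.3 with edgeR 4.0.16 (TMM, filterByExpr at min.count 10 and min.total.count 15, robust quasi-likelihood fits on all 8 libraries, Benjamini-Hochberg over 13439 genes). The common biological coefficient of variation was 0.376. Standard errors were approximated from the F statistic. DESeq2 1.42.0 and limma 3.58.1 gave alternatives. Totals were 13037832 to 14380240, and intervals and floors (3 counts) cover counting error only. No 2 libraries were alike within sampling noise (smallest chi-square per degree of freedom 10.8 over 28 pairs). The functions were tested on simulated data.

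Named were the 10 members, in 4 related lists every called gene and otherwise the 4 of lowest unadjusted p, the 3 highest leukocyte and stromal markers, Ptprc, the 5 genes most like Cd74 and B2m, and Kmt2a. A gene that this rule or the lists would name was fitted and counted like the rest but is left out of the text and figures. Of the genes outside this rule, Defa24, Epcam, Cd24a, H2-Ea-ps, H2-Oa and H2-Ob, named from the lists, were also chosen after their values were seen, and the others are marked so where named. The members and lists were chosen with earlier results of these data known.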

Additional observations from a re-analysis of the deposited data

Results flagged for a closer look

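In groups of 4 libraries, 36 sets of values were screened for a library far from the other 3, and 2 were found, where chance gives about 1 in 20, or 1.8. In the first, H2-Eb1 in the knockouts, knockout 3 had 0.470 normalized CPM against 9.58 to 10.5 in the others, and its gap to the nearest was 0.907 of the group's range. In the second, the summed level of the class II loading and regulation genes in the knockouts, knockout 3 was highest at 364 normalized CPM against 174 to 198, with a gap of 0.873. Cd63 and Lgmn, picked after their values were seen, made up much of that sum, with 152 and 111 normalized CPM in knockout 3 and 59.8 to 73.0 and 25.4 to 37.6 in the other knockouts. Knockout 3 had the highest level of all 14 Paneth markers as well. The cause of either was not tested.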

How the results depend on the processing

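No paired analysis was possible because the labels give no replicate numbers or litters (the methods call the mice littermates), and the animal number that control 4 and knockout 4 share covers 1 pair. No member was called between the genotypes under any alternative, but the number of all genes called depended on the setting: 25 as reported, 290 with no filter (all 25 among them), 13 with at least 10 counts in every library, 138 with DESeq2, 95 with limma-voom with quality weights, and 38 at an adjusted p of at most 0.1 with no fold limit. Leaving out 1 library gave 10 (control 3) to 152 (knockout 3). With no filter, 1 member was called between library sets, Cd74 (log2 difference -1.13, adjusted p = 0.0281), among 325 of 37039 genes. The signs of the class II genes were not stable. With limma-voom, Cd74 was at 0.41, H2-Aa at 0.46, H2-Ab1 at 0.042, H2-Eb1 at 0.15 and Ciita at 0.24. With 1 library left out, Cd74 ranged from -0.53 to 0.36, H2-Aa from -0.48 to 0.30, H2-Ab1 from -0.36 to 0.33, H2-Eb1 from -0.76 to 0.045 and Ciita from -0.51 to 0.21. Without control 1 all of these 5 were positive. H2-DMa stayed negative (-0.98 to -0.10), and B2m (0.18 to 0.44), H2-K1 (0.14 to 0.31), H2-D1 (0.12 to 0.30) and Tap1 (0.11 to 0.57) stayed positive. By Spearman, 1 of the 5 genes nearest Cd74 and 0 of those nearest B2m were kept. Chosen after seeing the data were the counts of interferon genes: 5 to 12 higher at an unadjusted p under 0.05 and 0 to 3 called with knockout 1 or 3 left out, against 8 and 0 (the 12 and the 3 include genes that passed the filter only without knockout 3), and 4 called with no filter. The cause of these shifts was not tested. Ciita had 4 to 35 counts per library, the lowest mean of the members.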
